A study of Mus musculus with 2 samples.

Results

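The genes described here are 10 markers of the integrated stress response and of the serine pathway that it feeds: Atf4, Ddit3, Asns, Trib3, Chac1, Psat1, Phgdh, Mthfd2, Nupr1 and Sesn2. They were taken by name from a table of 18595 genes, and all 10 were found in it and had at least 1 UMI (unique molecular identifier, the tag that counts each captured RNA molecule once) in both libraries. The cells came from the esophagus of hybrid C57BL/6J and BALB/c mice after removal of the muscle. In the Keap1 cKO library the mice were K5CreERT2::Keap1 floxB/floxB, in which the keratin 5 promoter drives a tamoxifen-dependent Cre, so that the floxed Keap1 gene is to be deleted in basal keratinocytes and their progeny and not in other cell types. In the Control library the mice carried Keap1 floxB/floxB without the Cre. The KEAP1 protein holds the transcription factor NRF2 low by sending it to the proteasome. The labels give neither the age of the mice, nor how many were used per library, nor when or how Cre was activated.

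The integrated stress response starts when one of several kinases phosphorylates the translation factor eIF2, which lowers protein synthesis in general but favours translation of the transcription factor ATF4. ATF4 then switches on genes for amino acid uptake and synthesis, for tRNA charging and, under long stress, for cell death. Serine made by the PHGDH, PSAT1 and PSPH enzymes supplies glycine, and through it glutathione, and carries the carbon units that the mitochondrial folate enzymes, MTHFD2 among them, pass on to nucleotide synthesis. Both NRF2 and ATF4 are known regulators of this pathway in mouse and human cells.

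There was 1 library per genotype. No difference between the genotypes therefore has a replicate check, no p-value is given, and the intervals below are 95% intervals that cover counting error only. There were 2381 cells with 26036522 UMIs in all from Keap1 cKO mice and 2472 cells with 30501227 UMIs from Control mice, and 5 cell barcodes occurred in both libraries. The authors' annotation gives 19 clusters, and levels are UMIs summed over the cells of a cluster in a library per 1000000 UMIs (CPM). A gene is counted below as higher or lower in Keap1 cKO cells when the CPM differed at least 1.5-fold and both libraries together held at least 20 UMIs of it in those cells. Such ratios were taken only in the 12 clusters with at least 50 cells in each library. The epithelial annotation covered clusters 4, 9, 10, 13, 14 and 15, with 422 Keap1 cKO and 848 Control cells. Cluster 4 was led by Col17a1, Dlk2 and Wnt10a, cluster 13 by Dsg1a and Abca12 and cluster 9 by genes of the Lce3 family. Summed basal markers stood at 12984 and 17233 CPM in cluster 4, suprabasal markers at 30520.3 and 46299 CPM in cluster 13, and cornified markers at 9219 and 3869 CPM in cluster 9, each time in Keap1 cKO and in Control cells. Cluster 14 was led by Tff2, Muc5b, Aqp4 and Cyp2a5, so most values over all epithelial cells are given with and without it. It held keratinocyte RNA as well. The 10 keratinocyte markers summed to 31893 CPM in its Keap1 cKO cells and 51415 CPM in its Control cells. In cluster 13 they summed to 39908 and 47972 CPM in Keap1 cKO and Control cells. Marker lists of other cell types moved with the genotype in the keratinocyte clusters. The 5 neutrophil markers summed to 6263 CPM in Keap1 cKO and 0.616 CPM in Control cells of cluster 4 and to 16706 and 2.86 CPM in cluster 13; the list holds S100a8 and S100a9, which keratinocytes also make under stress, and Cxcr2 was at 0 in Keap1 cKO cells of both clusters. The 6 T cell markers summed to 80.0 CPM in Keap1 cKO and 3.69 CPM in Control cells of cluster 4, the 5 red blood cell markers to 3609 and 661 CPM there, and the 6 fibroblast markers to 1449.8 and 280.0 CPM in the Keap1 cKO and Control cells of cluster 13. Basal markers summed to 9310.5 CPM in Keap1 cKO and 4827 CPM in Control cells of cluster 13. Their part in the results was not tested.

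The genotype was checked first. Keap1 itself stood at 44.5 CPM in Keap1 cKO epithelial cells and 69.8 CPM in Control epithelial cells, a log2 ratio of -0.65 (interval -0.83 to -0.47), and at 44.0 and 71.6 CPM without cluster 14, but the deleted exons are not given here and a 3′ library need not see them. The NRF2 targets Gclc (397 and 42.5 CPM in Keap1 cKO and Control epithelial cells) and Slc7a11 (109.6 and 1.60 CPM) were higher in Keap1 cKO cells. Without cluster 14 they stood at 453 and 43.3 CPM and at 123 and 1.60 CPM in Keap1 cKO and Control cells. Nqo1, another such target, stood at 162 and 90.7 CPM in Keap1 cKO and Control epithelial cells (182 and 93.5 CPM without cluster 14), yet at 59.9 and 121 CPM in cluster 13. Of the 10 listed NRF2 targets, all 10 were higher in cluster 4, against 6 higher and 1 lower in cluster 13.

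Most of the 10 genes were not spread evenly over the esophagus. Phgdh, Psat1 and Asns were keratinocyte genes in both libraries and Nupr1 was a gene of fibroblasts. Trib3 was scarce, with 78 UMIs in Keap1 cKO and 82 in Control cells of all clusters. Atf4 was detected in every cluster with at least 50 cells. Over the clusters with at least 50 cells, Atf4, which encodes the central transcription factor of the response, ranged between 82.3 CPM in cluster 3 and 198 CPM in cluster 17 of the Keap1 cKO library, leaving out the red cells of cluster 7 at 4.96 CPM. In the Control library it ranged between 69.4 CPM in cluster 10 and 149 CPM in cluster 11, with red cells at 4.70 CPM. Neighbours in this order had overlapping intervals except at the step to red cells in both libraries and, in the Control library, between cluster 13 at 97.1 CPM and cluster 4 at 76.0 CPM. Clusters further apart could have separate intervals. In the Keap1 cKO library these were 136 to 167 CPM in cluster 2 and 72.7 to 92.9 CPM in cluster 3. In the Control library they were 121 to 156 CPM in cluster 2 and 69.5 to 83.1 CPM in cluster 4.

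**Figure D1:**
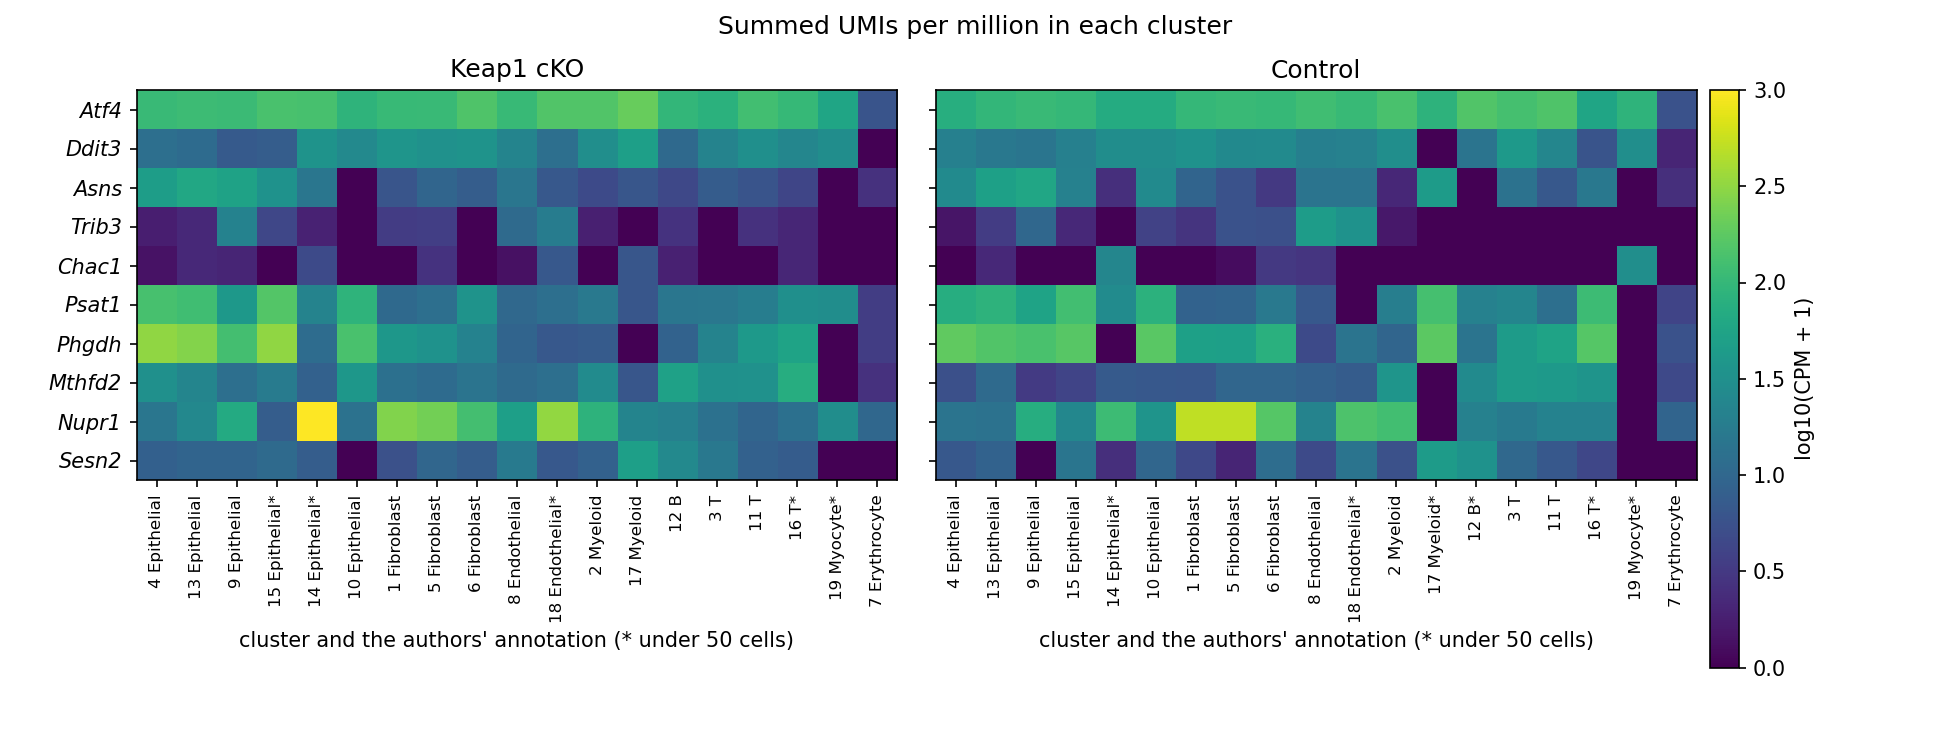
Level of the 10 genes in each of the 19 clusters, as log10(CPM + 1), with Keap1 cKO cells on the left and Control cells on the right; an asterisk marks clusters with under 50 cells in that library. Phgdh, Psat1 and Asns are brighter in the keratinocyte clusters 4, 13, 9 and 15 than in most other clusters, and Nupr1 in the fibroblast clusters 1 and 5 and in cluster 14 of the Keap1 cKO library (988 CPM).

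Over the genome build mm10, Phgdh lies at chr3:98313170-98339990, Psat1 at chr19:15904678-15947337, Mthfd2 at chr6:83305691-83325908, Asns at chr6:7675169-7693254 and Nupr1 at chr7:126623249-126630861, all on the minus strand and protein coding. In GENCODE vM21 Psat1 overlaps the pseudogene Gm3329, and Mthfd2 and Sesn2 overlap Gm43890 and Gm12981 on their own strand, so their counts carry that uncertainty.

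The serine synthesis enzymes were higher in Keap1 cKO keratinocytes of clusters 4 and 13 and not in the cornified cells of cluster 9. Phgdh encodes phosphoglycerate dehydrogenase, the first enzyme that draws carbon from glycolysis into serine. In cluster 4 it had 831 UMIs in 93 Keap1 cKO cells, or 318 CPM, and 1181 UMIs in 313 Control cells, or 182 CPM, a log2 ratio of 0.81 (interval 0.68 to 0.94). In cluster 13 it stood at 278 CPM in Keap1 cKO cells and 154 CPM in Control cells, a log2 ratio of 0.85 (interval 0.69 to 1.01). The intervals of the levels did not overlap between the libraries in either cluster. In cluster 9 the levels were 125 CPM in Keap1 cKO cells and 135 CPM in Control cells, and the interval of the log2 ratio, -0.57 to 0.36, held 0. Psat1 encodes phosphoserine aminotransferase, the next enzyme of the pathway. It stood at 132 and 72.0 CPM in cluster 4 (log2 ratio 0.87, interval 0.67 to 1.08) and at 118 and 86.8 CPM in cluster 13 (0.44, interval 0.22 to 0.67), in Keap1 cKO and in Control cells. The difference in cluster 13 was under 1.5-fold. Psph encodes the phosphatase that completes serine synthesis; it was not among the genes chosen by rule and was added after its values were seen. It stood at 65.1 CPM in Keap1 cKO and 24.3 CPM in Control cells of cluster 4, and at 83.5 CPM in Keap1 cKO and 40.2 CPM in Control cells of cluster 13. All 3 enzymes of the route thus had intervals above 0 in both clusters.

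**Figure D2:**
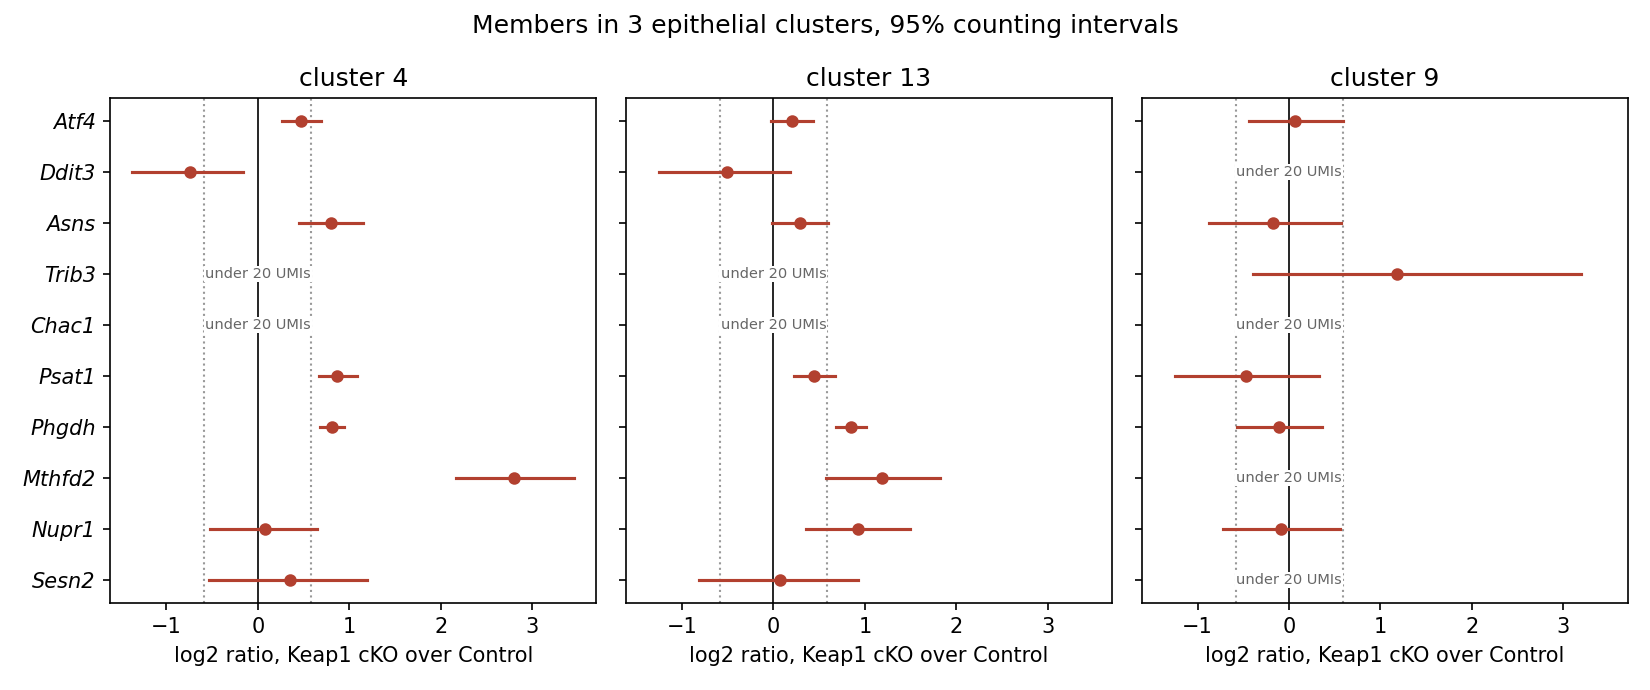
Log2 ratio of CPM, Keap1 cKO over Control, for each gene in clusters 4, 13 and 9; points are ratios, bars are 95% counting intervals and dotted lines mark 1.5-fold. Phgdh, Psat1 and Mthfd2 lie right of 0 with their whole interval in clusters 4 and 13, whereas Ddit3 lies left of 0 in cluster 4, and no interval drawn for cluster 9 leaves 0.

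The share of cells with a UMI gave the same order once depth was made equal. When each cell of cluster 4 was thinned to 1000 UMIs, Phgdh was seen in 25.6% of 90 Keap1 cKO cells (interval 16.9% to 35.8%) and 14.4% of 313 Control cells (interval 10.7% to 18.8%); 3 shallower Keap1 cKO cells were left out. Without thinning the shares ran the other way, 81.7% of Keap1 cKO cells and 93.9% of Control cells. Psat1 was seen in 12.2% and 4.47% of the thinned Keap1 cKO and Control cells. The red cells of cluster 7, which should lack these enzymes, held 0.0250 Phgdh UMIs per cell in the Keap1 cKO library and 0.0506 in the Control library at median depths of 10271.5 and 10831 UMIs. In cluster 4 the same measure was 8.94 UMIs per Keap1 cKO cell and 3.77 UMIs per Control cell, at median depths of 26254 and 20487 UMIs.

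Mthfd2 had the largest ratio among the members with at least 20 UMIs in clusters 4 and 13. It encodes the mitochondrial methylenetetrahydrofolate dehydrogenase, an enzyme abundant in embryonic and dividing cells. In cluster 4 it had 81 UMIs in Keap1 cKO cells, or 31.0 CPM, and 29 UMIs in Control cells, or 4.46 CPM, a 6.94-fold difference (log2 ratio 2.80, interval 2.17 to 3.46). In cluster 13 it stood at 22.3 CPM in Keap1 cKO cells and 9.75 CPM in Control cells (log2 ratio 1.19, interval 0.58 to 1.82). Without thinning, 37.6% of Keap1 cKO cells (interval 27.8% to 48.3%) and 7.99% of Control cells (5.24% to 11.6%) of cluster 4 held a Mthfd2 UMI. In cluster 13 these shares were 57.4% and 23.1% of the Keap1 cKO and Control cells. Depth was not made equal for these shares. Median depths were 26254 and 20487 UMIs in the Keap1 cKO and Control cells of cluster 4, and 43123 and 28122 UMIs in those of cluster 13. In cluster 9 it had 11 UMIs in Keap1 cKO cells and 1 UMI in Control cells, too few to count.

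Other enzymes of mitochondrial folate metabolism, taken from a wider list, were higher too. Aldh1l2, which oxidises formyl-folate in mitochondria, stood at 26.8 CPM (70 UMIs) in Keap1 cKO cells and 0.924 CPM (6 UMIs) in Control cells of cluster 4, and at 33.9 and 9.75 CPM in Keap1 cKO and Control cells of cluster 13. Mthfd1l, the mitochondrial formate-releasing enzyme, stood at 11.9 CPM (31 UMIs) in Keap1 cKO cells and 0.616 CPM (4 UMIs) in Control cells of cluster 4, and at 6.61 and 1.43 CPM in cluster 13. Shmt2, the mitochondrial serine hydroxymethyltransferase, stood at 73.5 and 46.8 CPM in Keap1 cKO and Control cells of cluster 4, and at 63.2 and 43.8 CPM in cluster 13, which is under 1.5-fold. Of 17 measured enzymes of the serine, glycine and folate list, 9 were higher and 2 lower in cluster 4, with a median log2 ratio of 0.61. In cluster 13, 5 were higher and 1 lower of 15, with a median of 0.26. Cbs, also named after its values were seen, which uses serine and homocysteine to make cystathionine, was the lowest of the list, at 11.5 CPM in Keap1 cKO cells and 57.9 CPM in Control cells of cluster 4 and at 1.24 and 11.4 CPM in cluster 13. Gldc, a glycine cleavage enzyme, had 30 UMIs in Keap1 cKO epithelial cells and 0 in Control epithelial cells, with or without cluster 14, but only 5 of the 30 were in cluster 4.

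Markers of dividing cells moved with these values in cluster 4. The summed level of Mki67, Top2a, Cdk1 and Ccnb1 was 699.6 CPM in Keap1 cKO cells and 103 CPM in Control cells of cluster 4, whereas in cluster 13 it was 31.0 CPM and 20.9 CPM. All 4 markers were detected in both libraries of both clusters. Cells with a UMI of any of the 4 were then left out, a step added once the values were known. That left 25 Keap1 cKO cells with a median depth of 5832 UMIs and 146 Control cells with a median depth of 21073 UMIs in cluster 4. The log2 ratios in these cells were 0.26 for Phgdh (interval -0.11 to 0.62), 0.55 for Psat1 (-0.06 to 1.10) and 0.96 for Mthfd2 (-2.27 to 3.19, from 2 and 10 UMIs), so none of the 3 intervals left 0. That of Asns held 0 as well (0.40, -0.66 to 1.32). The intervals of Aldh1l2 (4.70, 2.64 to 7.25), Psph (1.30, 0.44 to 2.09) and Slc3a2 (1.57, 1.22 to 1.91) stayed above 0 in these cells. Those of Mthfd1l (2.28, -1.18 to 5.08), Shmt2 (0.01, -0.94 to 0.83), Aars (1.19, -0.13 to 2.33) and Atf4 (0.39, -0.22 to 0.96) held 0. The same was true of Tyms (log2 ratio 0.62), of the serine, glycine and folate list, and Slc7a5 (0.19), of the transporter list. In cluster 13 the same step left 35 and 87 Keap1 cKO and Control cells, with log2 ratios of 0.94 for Phgdh (0.73 to 1.15), 0.36 for Psat1 (0.04 to 0.66) and 1.29 for Mthfd2 (0.51 to 2.06).

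Cluster 15 held dividing keratinocytes of the Control library, 75 cells with 1665 CPM of the 4 markers. Phgdh stood at 167 CPM there (interval 148 to 188), Mthfd2 at 3.09 CPM (upper bound 7.22) and Asns at 19.8 CPM (13.5 to 27.9), none of them above the Control level in cluster 4. Psat1, at 123 CPM (107 to 141), was above its Control level of 72.0 CPM in cluster 4. So were Atf4 (97.7 and 76.0 CPM in clusters 15 and 4), Nupr1 (23.5 and 13.4 CPM), Sesn2 (13.6 and 5.70 CPM) and Psph (42.1 and 24.3 CPM), all in Control cells. In clusters 4 and 15 pooled, the 4 markers stood at 789 CPM in 100 Keap1 cKO cells and 414 CPM in 388 Control cells. The log2 ratios of that pool were 0.83 for Phgdh (0.71 to 0.95), 0.71 for Psat1 (0.53 to 0.89), 0.83 for Asns (0.50 to 1.15) and 2.81 for Mthfd2 (2.23 to 3.43). Cluster 15 held only 7 Keap1 cKO cells, so it was not compared on its own. In Keap1 cKO cells of cluster 4 with and without a UMI of the 4 markers, Phgdh stood at 331 and 224 CPM. Psat1 stood at 137 and 94.6 CPM there, Asns at 47.0 and 34.7 CPM and Mthfd2 at 34.4 and 6.30 CPM (79 and 2 UMIs). In such Control cells Phgdh stood at 178 and 186 CPM and Mthfd2 at 5.57 and 3.24 CPM. The part of cell division in the differences was not tested.

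Asns encodes asparagine synthetase, a classic ATF4 target. It stood at 45.5 CPM (119 UMIs) in Keap1 cKO cells and 26.2 CPM (170 UMIs) in Control cells of cluster 4, a log2 ratio of 0.80 (interval 0.45 to 1.15). In cluster 13 the levels were 61.6 and 50.2 CPM in Keap1 cKO and Control cells, and the interval of the log2 ratio, -0.02 to 0.60, held 0. In cluster 9 they were 52.3 and 58.6 CPM. Of clusters 4, 13 and 9, cluster 4 was thus the one whose Asns interval lay above 0; whether the clusters differ was not tested.

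Some genes for tRNA charging and amino acid uptake, other groups that ATF4 is known to serve, were higher in cluster 4, though most were not past 1.5-fold. Of the 20 cytosolic aminoacyl-tRNA synthetases, 9 were higher and 0 lower, with a median log2 ratio of 0.52; in cluster 13, 3 were higher and 0 lower, with a median of 0.13. The synthetase Aars stood at 36.4 CPM in Keap1 cKO cells and 12.2 CPM in Control cells of cluster 4 and at 38.0 and 21.9 CPM in cluster 13, and Nars at 175 and 103 CPM and at 242 and 148 CPM. Of 8 measured amino acid transporters, 3 were higher and 0 lower in cluster 4, and 3 were higher and 1 lower in cluster 13. Slc3a2, the shared heavy chain of the cystine and leucine transporters, stood at 173 CPM in Keap1 cKO cells and 99.3 CPM in Control cells of cluster 4. Slc7a11, the cystine transporter and a target of NRF2 and ATF4, had 382 UMIs in Keap1 cKO cells and 0 in Control cells of cluster 4, so at least 317-fold higher, with 3 counts over all Control cells of the cluster taken as the floor.

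The background of these counts is large. In cluster 4, 18.9% of all 10956 measured genes were at least 1.5-fold higher in Keap1 cKO cells and 18.2% at least 1.5-fold lower. Of the 10 genes described here, 8 had 20 UMIs in cluster 4; 4 of them were higher (Asns, Psat1, Phgdh and Mthfd2) and 1 lower (Ddit3). Their median log2 ratio was 0.64, against 0.00 for all genes. In cluster 13, where 14.3% of genes were higher and 15.4% lower, 3 of 8 were higher (Phgdh, Mthfd2 and Nupr1) and 0 lower, with a median of 0.37 against -0.03. In cluster 9, where 19.8% of genes were higher and 30.2% lower, 1 of 6 was higher (Trib3) and 0 lower, with a median of -0.10 against -0.15. Over all epithelial cells 3 of 10 were higher (Trib3, Mthfd2 and Nupr1) and 0 lower, where 17.5% of genes were higher and 15.8% lower. The Trib3 ratio turned to -0.15 without cluster 9, and that of Nupr1 to -0.17 with clusters weighted equally. Cluster 2 had 1 of 7 higher (Sesn2) and 0 lower, where 15.8% of genes were higher and 10.9% lower. Cluster 11 had 1 of 5 higher (Psat1) and 0 lower, where 23.2% were higher and 9.34% lower, and cluster 6 had 0 of 3 higher and 1 lower (Phgdh), where 13.7% were higher and 25.5% lower. None of the 3 members measured in cluster 10 and of the 1 in cluster 7 was past 1.5-fold, where 26.3% and 17.7% of genes were higher and 21.9% and 18.8% lower. Over all epithelial cells without cluster 14, 5 of 9 were higher (Asns, Trib3, Phgdh, Mthfd2 and Nupr1) and 1 lower (Ddit3), where 15.4% of genes were higher and 19.9% lower.

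**Figure D3:**
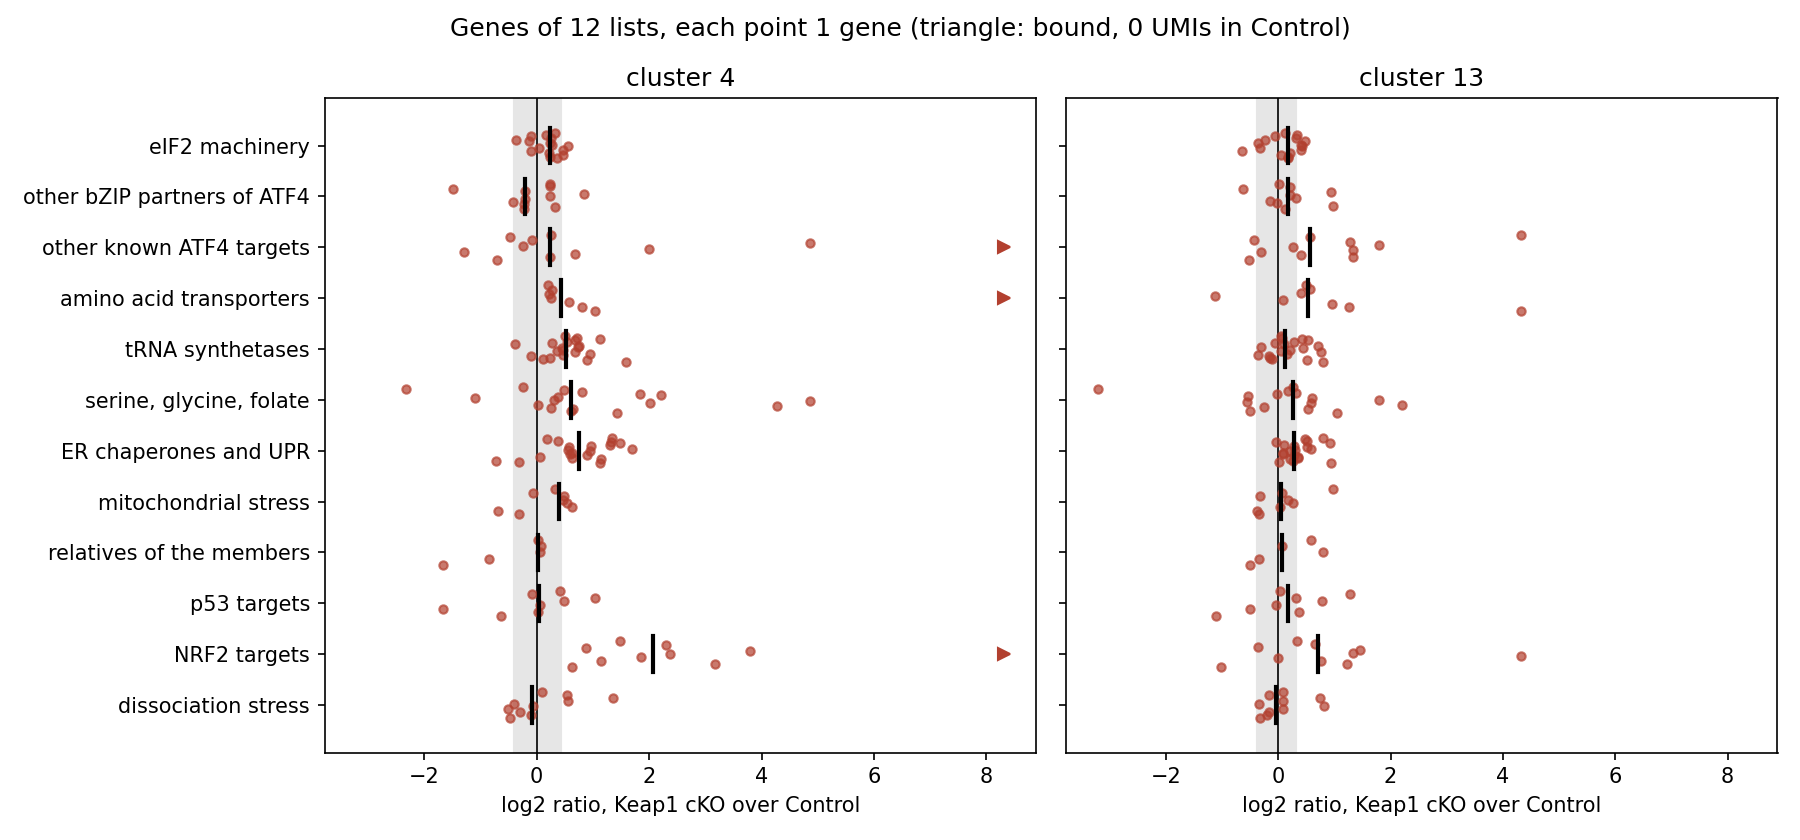
Log2 ratios, Keap1 cKO over Control, of the genes of 12 lists in clusters 4 and 13. Each point is a gene with at least 20 UMIs and the black bar is the list's median. A triangle is Slc7a11, with its 0 UMIs in Control cells set to the floor of 3. The grey band is the interquartile range of all genes. In cluster 4 the NRF2 targets have a median of 2.08, the chaperone list 0.76 and the synthetases 0.52, while the eIF2 list stays at 0.24 with no gene past 1.5-fold.

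The upstream part of the pathway had few genes past 1.5-fold at the RNA level. Atf4 stood at 106 CPM in Keap1 cKO cells and 76.0 CPM in Control cells of cluster 4 (log2 ratio 0.47, interval 0.26 to 0.69), which is under 1.5-fold. In cluster 13 it stood at 112 and 97.1 CPM, and the interval of the log2 ratio, -0.03 to 0.43, held 0. ATF4 is regulated mainly by translation, which these data do not measure. Of the 16 genes for eIF2 kinases, eIF2 phosphatase subunits and eIF2 and eIF2B subunits, none was higher or lower in cluster 4, with a median log2 ratio of 0.24, and 1 was lower in cluster 13. Eif2ak3, which encodes the kinase PERK, had 16 and 29 UMIs in Keap1 cKO and Control cells of cluster 4 and an interval of the log2 ratio that held 0. Of 11 measured bZIP partners of ATF4, 1 was higher and 1 lower in cluster 4, and of 10 in cluster 13, 2 were higher and 1 lower. Atf5, a partner with its own stress-induced translation, stood at 76.4 CPM in Keap1 cKO cells and 38.8 CPM in Control cells of cluster 13 and at 30.6 and 24.5 CPM in cluster 4.

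Ddit3, which encodes the pro-apoptotic factor CHOP, went the other way from the serine enzymes. In cluster 4 it had 30 UMIs in Keap1 cKO cells, or 11.5 CPM, and 125 UMIs in Control cells, or 19.2 CPM, a log2 ratio of -0.74 (interval -1.37 to -0.16). In cluster 13 it stood at 10.3 CPM in Keap1 cKO cells and 14.8 CPM in Control cells, with an interval of the log2 ratio from -1.25 to 0.18. In the cells of cluster 4 without a UMI of a dividing-cell marker the sign turned, to 0.33 (interval -0.95 to 1.40, from 8 and 62 UMIs). In clusters 4 and 15 pooled it stayed lower, at -0.81 (-1.41 to -0.25, from 32 and 156 UMIs). The annotation holds 2 overlapping entries named Ddit3 on the same strand of chr10:127290774-127296288 (mm10), beside Mars on the other strand, and how their reads were assigned is not stated, so the Ddit3 level is uncertain.

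Endoplasmic reticulum chaperones, which respond to other arms of the unfolded protein response, were higher in cluster 4, with 13 of 20 higher and 1 lower and a median log2 ratio of 0.76. Hspa5, the chaperone BiP, stood at 408 CPM in Keap1 cKO cells and 185 CPM in Control cells of cluster 4, and at 491 and 421 CPM in cluster 13, where 4 of 20 were higher and 0 lower. In cluster 9 the list stood the other way, with 13 of 13 measured genes lower and a median of -2.06. There 30.2% of all genes were lower, and the suprabasal markers stood at 23712 CPM in Keap1 cKO cells and 99941 CPM in Control cells. The other known ATF4 targets were mixed in cluster 4, with 4 higher and 2 lower of 11. In cluster 13, 5 were higher and 0 lower of 11. In cluster 9, 4 of 4 measured were higher, with a median of 2.17, where 19.8% of all genes were higher. Slc7a11 is in this list and also in the transporter and NRF2 target lists. Eif4ebp1, a repressor of cap-dependent translation, stood at 88.8 CPM in Keap1 cKO cells and 55.3 CPM in Control cells of cluster 4. Ddit4, an inhibitor of mTORC1 that was named after its value was seen, stood at 23.0 and 37.4 CPM there. Of the 8 mitochondrial stress genes 1 was higher and 1 lower in cluster 4, and 1 higher and 0 lower in cluster 13. The dissociation stress genes had 1 higher and 0 lower of 10 in cluster 4, with a median of -0.09, and 2 higher and 0 lower in cluster 13, with a median of -0.04.

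Within the Keap1 cKO library, cells with and without a Slc7a11 UMI stood far apart in Gclc and had no Phgdh, Psat1 or Mthfd2 difference detectable at this depth in cluster 4. In cluster 4, 25 Keap1 cKO cells held a Slc7a11 UMI and 68 did not, with median depths of 43720 and 16034 UMIs. Gclc, the catalytic subunit of glutathione synthesis and an NRF2 target, stood at 811 CPM in the cells with a Slc7a11 UMI and 85.8 CPM in those without. Phgdh stood at 330.3 and 309 CPM in the same cells, with a log2 ratio of 0.10 (interval -0.10 to 0.30), Psat1 at 140.2 and 126 CPM (0.15, -0.16 to 0.47) and Mthfd2 at 31.2 and 30.8 CPM (0.02, -0.66 to 0.69). The cells without a Slc7a11 UMI were still above Control cells, with log2 ratios of 0.76 for Phgdh (0.61 to 0.92), 0.81 for Psat1 (0.55 to 1.05) and 2.79 for Mthfd2 (2.09 to 3.51). They were above Control cells in Gclc too, at 85.8 and 43.7 CPM (0.97, 0.66 to 1.28). Nqo1 stood at 40.9 CPM in them and 70.3 CPM in Control cells (-0.78, -1.19 to -0.40). In cluster 13 the cells without a Slc7a11 UMI had 31.0 CPM of Gclc and Control cells 44.5 CPM, with an interval that held 0 (-0.52, -1.29 to 0.16). Nqo1 stood at 47.3 and 121 CPM there (-1.35, -1.95 to -0.81). Their log2 ratios over Control cells were 0.73 for Phgdh (0.47 to 0.98), 0.37 for Psat1 (-0.02 to 0.75) and 1.59 for Mthfd2 (0.70 to 2.42). Whether NRF2 was active in the cells without a Slc7a11 UMI was not tested. Mthfd1l was an exception in cluster 4, at 19.6 CPM in the cells with a Slc7a11 UMI and 6.03 CPM in those without (log2 ratio 1.70, 0.53 to 3.01). In cluster 13 its interval held 0 (-0.42, -2.06 to 1.45).

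Restricting the split to cells of at least 10000 UMIs, also a step added later, left 22 and 40 cells with median depths of 48494 and 36121.5 UMIs. Phgdh then had a log2 ratio of 0.08 (-0.12 to 0.29) and Gclc one of 3.38 (3.09 to 3.69). In cluster 13, where 39 cells held a Slc7a11 UMI and 22 did not, Phgdh stood at 286 and 256 CPM and Psat1 at 120.1 and 113 CPM. Asns had an interval above 0 between those cells, at 69.7 CPM with and 37.5 CPM without a Slc7a11 UMI (log2 ratio 0.89, 0.25 to 1.60). All these cells come from 1 library, so the intervals compare its cells and say nothing of other mice.

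**Figure D4:**
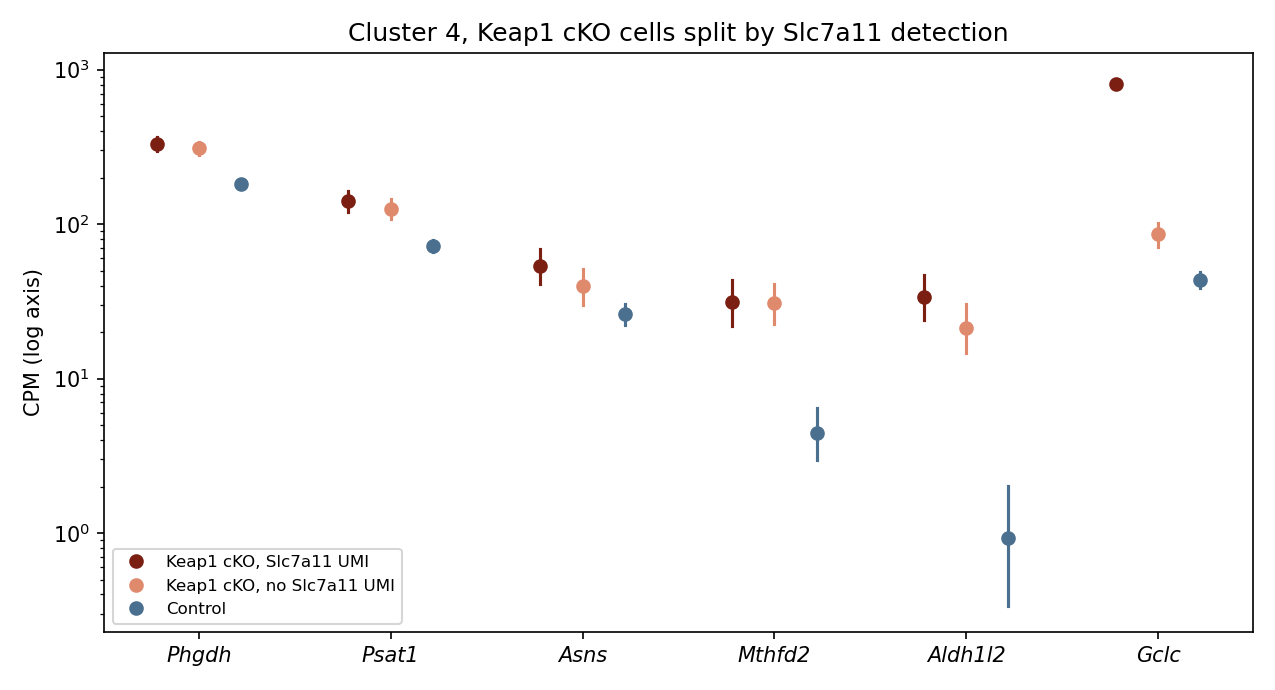
CPM (log axis) of 6 genes in cluster 4, in Keap1 cKO cells with a Slc7a11 UMI, Keap1 cKO cells without one, and Control cells; bars are 95% Poisson intervals. Gclc differs between both sets of Keap1 cKO cells (811 and 85.8 CPM), while Phgdh, Psat1 and Mthfd2 stand at like levels in both and above the Control cells.

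Nupr1 encodes a small stress-induced chromatin protein and was most abundant in fibroblasts and in cluster 14. In fibroblasts it was lower in Keap1 cKO cells, at 268 CPM in Keap1 cKO and 509.6 CPM in Control cells of cluster 1 (log2 ratio -0.92, interval -1.04 to -0.81), and at 229.6 and 518 CPM in cluster 5 (-1.17, -1.32 to -1.03). It stood at 86.7 and 121 CPM in the Keap1 cKO and Control cells of the myeloid cluster 2 (-0.48, -0.76 to -0.20). In endothelial cluster 8 it was higher, at 48.2 CPM in Keap1 cKO cells and 20.7 CPM in Control cells (1.22, 0.34 to 2.26), and in cluster 13 it stood at 24.0 and 12.6 CPM (0.93, 0.36 to 1.49). In cluster 4 the levels were 14.2 and 13.4 CPM, with an interval of the log2 ratio from -0.52 to 0.65. Dissociation stress genes moved with the fibroblast values: 7 of 10 were lower in cluster 1, with a median log2 ratio of -0.90, and 8 of 10 in cluster 5, with a median of -1.19; their part in the Nupr1 values was not tested. Fibroblast clusters 1 and 5, myeloid cluster 2 and endothelial cluster 8 are not those in which the Cre is meant to act.

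In the Keap1 cKO library most epithelial Nupr1 UMIs came from cluster 14. Of 1211 Nupr1 UMIs in Keap1 cKO epithelial cells, 1047 (86.5%) were in the 40 cells of cluster 14, at 988 CPM, and 1 cell alone held 324. The 42 Control cells of cluster 14 held 74 UMIs, at 112 CPM, 34 of them in 1 cell. Without the cell with most UMIs in each library the levels were 699 CPM in Keap1 cKO cells and 65.3 CPM in Control cells. The cells of this cluster differed between the libraries in more than Nupr1, with median depths of 27848 and 3547.5 UMIs and a summed level of the gastric or airway markers Tff2 and Muc5b of 3067 CPM in Keap1 cKO cells and 1.52 CPM in Control cells. Over all epithelial cells Nupr1 stood at 162 CPM in Keap1 cKO and 21.5 CPM in Control cells, and without cluster 14 at 25.7 and 16.9 CPM (log2 ratio 0.60, interval 0.30 to 0.90).

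**Figure D5:**
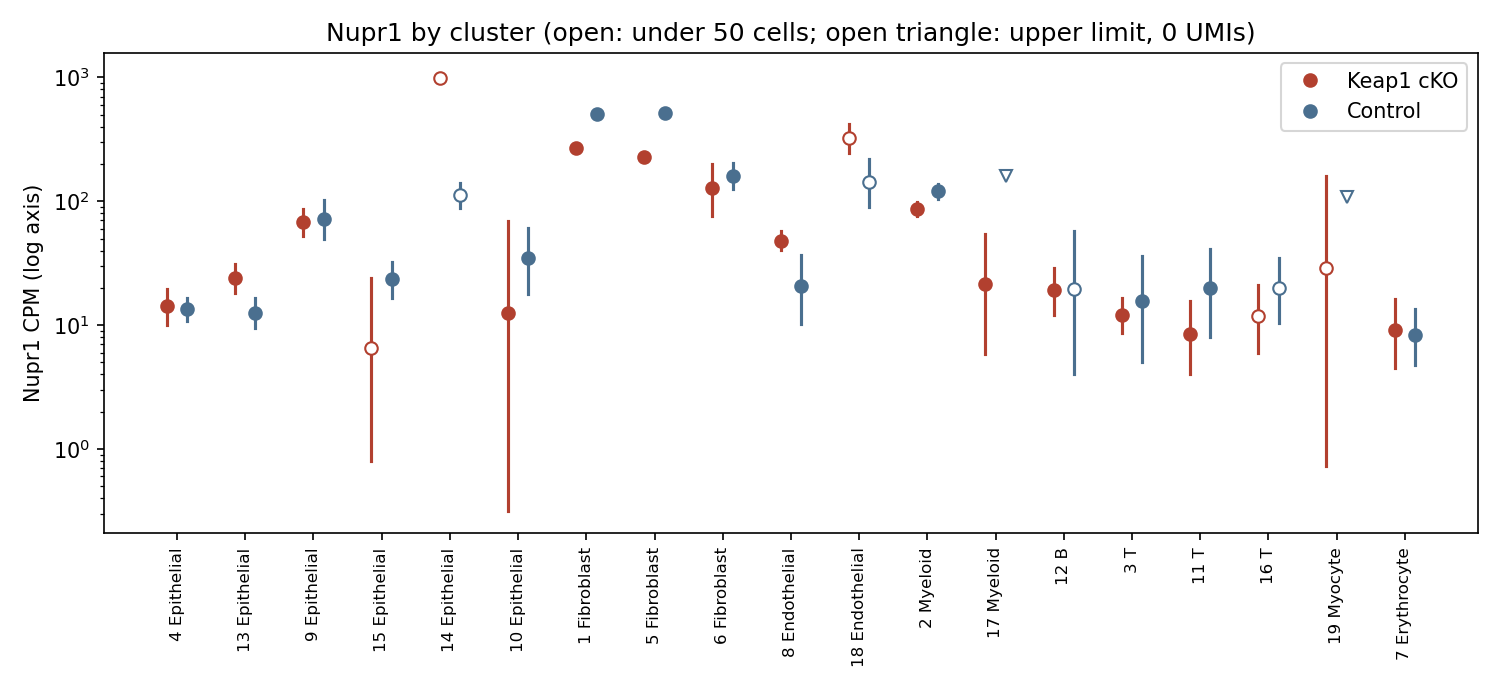
Nupr1 CPM (log axis) by cluster in Keap1 cKO and Control cells, with 95% Poisson intervals; open symbols are clusters with under 50 cells in that library and an open triangle is the upper limit at 0 UMIs. The Keap1 cKO points lie below the Control points in fibroblast clusters 1 and 5 (268 and 509.6 CPM, 229.6 and 518 CPM) and far above in cluster 14 (988 and 112 CPM).

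Trib3 and Chac1, both known ATF4 and CHOP targets in other mouse and human cells, were scarce. Trib3, a pseudokinase that restrains AKT and ATF4 itself, had 27 UMIs in Keap1 cKO and 20 in Control epithelial cells. Of the 27, 20 were in cluster 9, where it stood at 20.5 CPM in Keap1 cKO cells and 9.02 CPM (4 UMIs) in Control cells, with an interval of the log2 ratio from -0.39 to 3.19. In endothelial cluster 8 it was lower, at 9.92 CPM (28 UMIs) in Keap1 cKO cells and 45.1 CPM (24 UMIs) in Control cells, a log2 ratio of -2.18 (interval -3.02 to -1.33). There the dissociation stress genes had 1 higher and 6 lower of 10 and a median of -0.64, and 9.84% of all genes were lower. Chac1, which degrades glutathione, had 9 UMIs in Keap1 cKO and 20 in Control epithelial cells. Of the 20, 15 were in cluster 14 and 7 in 1 cell. In cluster 4 it had 1 UMI in 93 Keap1 cKO cells and 0 in 313 Control cells, so no difference was detectable at this depth.

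Sesn2 encodes sestrin 2, a leucine sensor that inhibits mTORC1 and a target of NRF2, ATF4 and p53. In the keratinocyte clusters its levels stayed close, at 7.27 and 5.70 CPM in Keap1 cKO and Control cells of cluster 4 and at 8.26 and 7.85 CPM in cluster 13, with intervals of the log2 ratio from -0.53 to 1.19 and from -0.81 to 0.92. It was higher in fibroblast cluster 5, at 8.85 CPM (20 UMIs) in Keap1 cKO cells and 1.06 CPM (4 UMIs) in Control cells (log2 ratio 3.07, 1.49 to 5.07). In endothelial cluster 8 it stood at 16.3 CPM (46 UMIs) and 3.76 CPM (2 UMIs) in Keap1 cKO and Control cells (2.12, 0.18 to 5.21). Its relative Sesn1, a p53 and FOXO target, was lower in cluster 4, at 25.6 CPM in Keap1 cKO and 80.8 CPM in Control cells. In cluster 13 it had 46 and 113 UMIs in Keap1 cKO and Control cells, with an interval of the log2 ratio from -1.03 to 0.01. Of 5 measured relatives of the 10 genes 0 were higher and 2 lower in cluster 4, and 2 were higher and 0 lower in cluster 13. Of 8 p53 targets 1 was higher and 2 lower in cluster 4, and 2 were higher and 1 lower in cluster 13.

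Over all epithelial cells the list genes named by rule varied as well. Among regulators, Cebpd stood at 58.5 CPM in Keap1 cKO and 26.1 CPM in Control cells, Cebpb at 219 and 173 CPM and Nfe2l2, the gene of NRF2, at 279 and 266 CPM. Without cluster 14 the levels were 35.8 and 23.5 CPM for Cebpd, 213 and 176 CPM for Cebpb and 296 and 275 CPM for Nfe2l2 in Keap1 cKO and Control cells. Among uptake genes, Slc38a1 had 39 UMIs in Keap1 cKO and 12 in Control cells, while Slc38a2 stood at 207 and 196 CPM; without cluster 14 these were 30 and 12 UMIs and 219 and 201 CPM. Xbp1, a transcription factor of the unfolded protein response, stood at 194 CPM in Keap1 cKO and 92.1 CPM in Control cells, and Dele1, which relays mitochondrial stress to eIF2 kinase signalling, at 15.8 and 26.5 CPM; without cluster 14 Xbp1 stood at 183 and 92.6 CPM and Dele1 at 15.6 and 27.2 CPM. Trib2, a relative of Trib3, stood at 11.3 and 2.40 CPM in Keap1 cKO and Control cells, with 84 and 33 UMIs, of which 20 and 6 lay outside cluster 14.

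Outside the epithelium Phgdh was at lower levels in Keap1 cKO cells of fibroblast clusters 1 and 5, of cluster 6, annotated as fibroblast, and of T cell cluster 3. Cluster 6 was led by Myog and Acta2. Its fibroblast markers summed to 43425 and 16775 CPM and its muscle markers to 664 and 463 CPM in Keap1 cKO and Control cells. It had 106 UMIs in Keap1 cKO and 332 UMIs in Control cells of fibroblast cluster 1 (log2 ratio -0.43, interval -0.76 to -0.11), at 32.7 and 48.1 CPM in cluster 5 (-0.55, -0.96 to -0.16) at 20.1 and 78.2 CPM in cluster 6 (3 and 36 UMIs), and at 21.1 and 43.7 CPM in T cell cluster 3 (-1.05, -1.89 to -0.10). Psat1 had intervals that held 0 in all of these clusters and in T cell cluster 11. Keratinocyte markers moved with the cluster 6 value: the 10 keratinocyte markers summed to 1012 CPM in Keap1 cKO and 5138 CPM in Control cells there, and the 6 basal ones to 342 and 3115 CPM. In Keap1 cKO and Control cells the 10 markers summed to 649 and 832 CPM in cluster 1 and to 645 and 947 CPM in cluster 5. In cluster 3 they summed to 888 and 1268 CPM. The part of keratinocyte RNA in these Phgdh values was not tested. Mthfd2 was higher in cluster 1, at 11.9 CPM in Keap1 cKO and 5.58 CPM in Control cells (1.10, 0.38 to 1.81). In cluster 3, which holds 378 Keap1 cKO and 59 Control cells, Atf4 stood at 82.3 CPM in Keap1 cKO and 128 CPM in Control cells (-0.64, -1.12 to -0.13). There 4 of 8 of the genes were lower (Atf4, Ddit3, Asns and Phgdh) and 1 higher (Sesn2), where 14.5% of all genes were lower and 21.6% higher. The intervals of Ddit3, Asns and Sesn2 held 0 there, and 5 of 10 dissociation stress genes were lower and 0 higher, with a median of -0.48; their part in these values was not tested. In cluster 1, 1 of 8 was higher (Mthfd2) and 2 lower (Asns and Nupr1), where 13.9% of genes were higher and 16.1% lower. In cluster 5, 2 of 9 were higher (Asns and Sesn2) and 2 lower (Trib3 and Nupr1), where 13.2% were higher and 18.2% lower. Of these, the intervals of Asns in clusters 1 and 5 and of Trib3 in cluster 5 held 0, as did those of Sesn2 in cluster 2 and Psat1 in cluster 11. In cluster 8, 4 of 9 were higher (Psat1, Phgdh, Nupr1 and Sesn2) and 1 lower (Trib3), where 26.1% of genes were higher and 9.84% lower; of the 4, the intervals of Psat1 and Phgdh held 0.

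Over 27 cluster and library pools with at least 50 cells, Psat1 and Phgdh were the members whose levels ran most alike (Pearson r of log2(CPM + 10) = 0.86), followed by Atf4 with Ddit3 (0.75) and Asns with Phgdh and with Psat1 (0.69 each). Among 9523 genes with at least 500 UMIs, genes most like Psat1 included Barx2 (0.93) and Tfap2c (0.92), which encode transcription factors. Those most like Phgdh were Cep170b (0.93) and C77080 and Glo1 (0.90 each), and the one most like Asns was Ap1m2 (0.93). The genes most like Mthfd2 were Cdk6 (0.87), Rpa1 (0.86) and Mcm3 (0.83), which act in the cell cycle or in DNA replication. Genes most like Nupr1 included Abca6 and Dnm1 (0.91 each), and Atf4 was most like Pafah1b1 (0.95). Ddit3 was most like Lysmd3 (0.88) and Sesn2 most like Abr (0.88), while Trib3 and Chac1 had under 200 UMIs and were not compared. The pools share cell types and libraries, so these values describe likeness over cell types and have no p-value.

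Promoters of the genes that were higher in cluster 4 follow with that of Nupr1, to set those with a match to the ATF4 site beside those without. The windows run from 250 bases before to 50 bases after the start in the RefSeq set on GRCm38.p6 (mm10), written 5′ to 3′ on the gene's strand. Capitals mark matches to TGATGNAAN, the C/EBP-ATF response element that ATF4 dimers bind, or to TGACNNNGC, the antioxidant response element that NRF2 binds, on either strand. On 1 strand the words cannot match at the same start, since TGAT and TGAC differ.
Asns (chr6:7693160-7693459, minus strand): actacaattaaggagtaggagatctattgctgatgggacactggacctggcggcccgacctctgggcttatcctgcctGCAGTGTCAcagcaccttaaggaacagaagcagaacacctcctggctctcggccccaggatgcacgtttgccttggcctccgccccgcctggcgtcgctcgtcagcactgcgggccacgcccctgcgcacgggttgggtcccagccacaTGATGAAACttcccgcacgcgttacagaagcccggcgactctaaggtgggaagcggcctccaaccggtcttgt
Phgdh (chr3:98339920-98340219, minus strand): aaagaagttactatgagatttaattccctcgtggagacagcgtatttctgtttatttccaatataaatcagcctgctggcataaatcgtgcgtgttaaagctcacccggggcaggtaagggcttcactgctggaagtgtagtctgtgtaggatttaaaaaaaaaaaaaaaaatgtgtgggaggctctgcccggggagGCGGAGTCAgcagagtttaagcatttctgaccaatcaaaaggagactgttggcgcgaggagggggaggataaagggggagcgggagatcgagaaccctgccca
Mthfd2 (chr6:83317555-83317854, minus strand): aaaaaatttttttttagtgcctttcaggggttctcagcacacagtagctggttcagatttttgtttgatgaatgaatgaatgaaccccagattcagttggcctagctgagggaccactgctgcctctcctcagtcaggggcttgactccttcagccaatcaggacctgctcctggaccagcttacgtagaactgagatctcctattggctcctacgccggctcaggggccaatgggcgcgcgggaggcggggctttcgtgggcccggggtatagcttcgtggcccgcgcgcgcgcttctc
Psat1 (chr19:15925010-15925309, minus strand): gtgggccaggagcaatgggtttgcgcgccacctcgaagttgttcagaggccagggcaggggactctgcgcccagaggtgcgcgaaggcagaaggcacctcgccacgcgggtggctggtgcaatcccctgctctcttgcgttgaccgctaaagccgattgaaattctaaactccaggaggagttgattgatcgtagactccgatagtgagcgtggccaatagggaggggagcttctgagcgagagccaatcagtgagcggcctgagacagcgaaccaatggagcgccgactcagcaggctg
Nupr1 (chr7:126625421-126625720, minus strand): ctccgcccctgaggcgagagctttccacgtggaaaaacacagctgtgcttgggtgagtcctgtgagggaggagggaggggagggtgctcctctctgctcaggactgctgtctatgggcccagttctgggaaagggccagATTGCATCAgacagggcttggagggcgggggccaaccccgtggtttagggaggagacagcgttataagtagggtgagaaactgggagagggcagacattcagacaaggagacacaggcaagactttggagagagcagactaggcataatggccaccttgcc

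The Asns window held the ATF4 word TGATGAAAC 23 bases before the start and an antioxidant word 172 bases before it. The Nupr1 window held ATTGCATCA, the ATF4 word on the opposite strand, 111 bases before the start, and the Phgdh window held an antioxidant word 53 bases before the start and no ATF4 word. The Mthfd2 and Psat1 windows held neither. All 10 genes had a window and Psat1 had 2, which gave 11 windows. Of these, 4 (Asns, Trib3, Chac1 and Nupr1) held the ATF4 word, which occurred in 3.95% of all 32851 windows, and 3 (Asns, Phgdh and Sesn2) held the antioxidant word, which occurred in 12.4%. Among the members with the ATF4 word, Asns was higher in cluster 4, Nupr1 was not and Trib3 and Chac1 had under 20 UMIs there; Phgdh, Psat1 and Mthfd2 were higher there without it in these windows. A match or its absence in these windows says nothing of binding.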

How the data were processed

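Single-cell RNA was measured in 2 libraries, 1 per genotype. Per the submitters' processing notes the genome build was mm10 and the tools were Seurat 4.0.2, Cell Ranger 6.0.1 and R 4.1.1. The authors deposited natural log values, ln(1 + UMIs scaled to 10000 per cell), with a cluster and cell type for each cell. Whole UMIs were recovered from them (100% of values whole within 0.01), so the count-based plan was kept. Cells held 500 to 100520 UMIs, and no cell was filtered out or tested for doublets.

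UMIs were summed per cluster and library and divided by their total (CPM), with exact Poisson intervals. Intervals of log2 ratios came from the exact binomial given both counts. Shares of cells, thinned to 1000 UMIs or given without thinning where so stated, had Clopper-Pearson intervals. Intervals cover counting error only. No test was run. The calculation was tested on simulated data. Python 3.11.15, numpy 2.4.6, scipy 1.17.1, pandas 2.3.3 and matplotlib 3.10.9 were used.

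The members and lists were chosen with earlier results of these data known. Named from each list were the 2 genes with most epithelial UMIs and the 2 with the largest epithelial ratio; Keap1, Nqo1, Gclc and Slc7a11 checked the genotype, and up to 3 most alike genes were taken per member; some of these are not reported here. Psph, Cbs, Ddit4, Tyms and Slc7a5 fall outside this rule. Alternatives were scaling, weighting, thinning, filters, fold and clusters left out. Leaving out top cells, cells under 10000 UMIs or cells with a dividing-cell marker was added after the values were seen. Of the table's gene names, 18323 of 18595 were found in GENCODE vM21.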

Additional observations from a re-analysis of the deposited data

Results flagged for a closer look

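The members below had ratios whose whole counting interval lay above 0 in one cluster and below 0 in another. With 1 library per genotype the difference between clusters was not tested. For Atf4 the log2 ratio, Keap1 cKO over Control, was 0.47 in keratinocyte cluster 4 and -0.64 in T cell cluster 3, a difference of 1.11. For Phgdh it was 0.85 in keratinocyte cluster 13 and -1.96 in cluster 6, annotated as fibroblast, a difference of 2.81; 2 clusters lay above 0 and 4 below. The cluster 6 value rests on 3 UMIs in Keap1 cKO cells and 36 in Control cells, and keratinocyte markers there summed to 1012 CPM in Keap1 cKO and 5138 CPM in Control cells; their part was not tested. For Nupr1 it was 1.22 in endothelial cluster 8 and -1.17 in fibroblast cluster 5, a difference of 2.40; 2 clusters lay above 0 and 3 below.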

How the results depend on the processing

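Over all epithelial cells 3 members were higher and 0 lower in Keap1 cKO cells, with a median log2 ratio of 0.45. The higher count became 5 without cluster 14. The lower count became 1 when each cell was weighted equally, without cluster 4 and without cluster 14, and equal cell weights gave a median of 0.20. The Trib3 ratio turned to -0.15 without cluster 9, and that of Nupr1 to -0.17 with clusters weighted equally. In cluster 4 the Ddit3 ratio turned to 0.33 without cells that held a dividing-cell marker. Its interval then held 0 (-0.95 to 1.40), and in clusters 4 and 15 pooled the ratio was -0.81 (-1.41 to -0.25). The cause was not tested. Of 128 alternative values for the epithelial member ratios, 100 stayed within the main interval, 26 moved and 2 reversed. Of 64 in clusters 4 and 13, 54 stayed, 9 moved and 1 reversed. Scaling by the median of ratios shifted clusters 6, 8, 9 and 11 by 0.13, -0.16, 0.17 and -0.14 on the log2 scale. Trib3 and Chac1, with 160 and 42 UMIs in all, are limited by depth.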
